A study of Ovis aries with 3 samples.

Results

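The microRNAs (miRNAs) of the duodenum and the cecum of sheep were compared through their read counts in small RNA libraries. The duodenum (DU) and cecum (CE) libraries each held RNA pooled from the same 3 Small tailed Han sheep ewes, aged 11 months and given no treatment, and the tissue of both was labelled intestinal mucosal epithelial tissue. A colon (CO) library of the same ewes is given only as a further level. There was 1 library per segment, so no difference could be set against the spread between animals, and no test of the segments was possible. The count table had 822 rows, each a mature sequence, of which 146 were known sheep miRNAs (names beginning with oar-) and 676 were predicted miRNAs. The comparison covered every row with at least 10 reads in both libraries. These were 274 rows, 94 known and 180 predicted, and they held 99.72% of all reads in DU and 99.85% in CE. Of the 548 rows left out, 229 had no reads in either library, 156 had reads only in the DU library, 94 only in the CE library, and 69 had fewer than 10 reads in at least 1 of them. The smaller count was 10 to 12 reads in the 19 rows just inside the limit and 8 or 9 reads in the 15 rows just outside it.

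A miRNA is a short RNA of about the length of the sequences below that guides Argonaute proteins to messenger RNAs and lowers their translation or stability. Bases 2 to 8, the seed, pair with the target, so miRNAs with the same seed form a family with overlapping targets. Many miRNAs lie close together in the genome and are cut from a shared primary transcript, and others lie inside protein-coding genes. The duodenum is lined by villi with absorptive enterocytes and receives bile and pancreatic juice, whereas the cecum is a site of microbial fermentation with crypts and no villi. The position along the gut is marked by the HOX genes, whose clusters also hold miRNA genes.

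The rows below carry the main differences between the libraries, with the seed in capitals. The rows of miR-10a, miR-10b, miR-196a, and miR-615-3p stand for genes of HOX clusters in mammals, with novel_mir_153 shown for its likeness to miR-196a, the next is the miR-192/miR-215 and miR-194 group of the intestinal epithelium, then follow both known rows of the miR-148/miR-152 family, and the last line is the row with the most reads.
oar-miR-10a: tACCCTGTagatccgaatttg
oar-miR-10b: aCCCTGTAgaaccgaatttgtg
novel_mir_153: tAGGTAGTtttatgttgttggg
bta-miR-196a: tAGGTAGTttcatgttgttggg
cgr-miR-615-3p: tCCGAGCCtgggtctccctct
bta-miR-192: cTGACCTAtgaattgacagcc
bta-miR-215: aTGACCTAtgaattgacagaca
oar-miR-194, known 22-nt row: tGTAACAGcaactccatgtgga
miR-194, predicted 23-nt row: tGTAACAGcaactccatgtggac
oar-miR-148a: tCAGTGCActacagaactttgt
oar-miR-152: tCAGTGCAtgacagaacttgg
oar-miR-143: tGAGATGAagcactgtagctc

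Positions in these sequences are counted from 1 at the 5′ end. The rows of miR-192 and miR-215 had the same seed and differed by the substitutions C1A and C20A over the 21 positions they share. The row novel_mir_153 had the seed of miR-196a and differed from it only by C11T. The annotated miR-10b begins 1 base later than miR-10a, so that its bases 2 to 8 are not those of miR-10a, although both belong to the same family. Sequences and names beginning with bta- (cattle), cgr- (Chinese hamster), chi- (goat), or hsa- (human) belong to predicted rows matched to a miRNA of that species by sequence.

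Counts were scaled to reads per 1000000 reads of known miRNAs (RPM), which made 1 read worth 0.091 RPM in the duodenum against 0.0752 RPM in the cecum. The known rows held 10983452 DU reads and 13304099 CE reads, 75.9% and 88.3% of all reads. Differences are log2 ratios of the CE level over the DU level, negative where the DU level was higher. Their intervals are exact 95% intervals of the split of the reads, which cover counting error only and say nothing of animals or library preparation. The median log2 ratio of the 274 rows was -0.42. The row of miR-143 took 41.9% of the known reads in the duodenum and 54.8% in the cecum, and with 4 other library scalings all ratios moved up together by 0.22 to 0.42. Under these scalings, 137 rows had a higher DU level whichever scaling was used, 88 had a higher CE level, and 49 changed direction.

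A level at least 2-fold higher was found in the DU library for 60 of the 274 rows (21.9%) and in the CE library for 11 (4.01%), and 186 rows lay below 0 and 88 above. The split depended on the scaling, since with DESeq2 size factors 25 rows were at least 2-fold higher in the duodenum against 27 in the cecum, and 137 lay on each side of 0. Known and predicted rows differed in this split. Of the 94 known rows, 3 were at least 2-fold higher in the DU library (3.19%; miR-148a, miR-194, and miR-150) and 3 in the CE library (3.19%; miR-10a, miR-10b, and miR-485-3p), and their median log2 ratio was 0.03. With DESeq2 size factors the known rows past 2-fold were 1 (miR-148a) toward the duodenum and 15 toward the cecum. Of the 180 predicted rows, 57 were at least 2-fold higher in the duodenum (31.7%) and 8 in the cecum (4.44%), with a median of -0.61, or 24 and 12 with DESeq2 size factors. The median row had 1528 reads (DU) and 2099 reads (CE) among the known rows and 174 and 150 reads among the predicted rows. The counting interval reached inside 2-fold for 31 of the 60 rows on the DU side and 3 of the 11 on the CE side.

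**Figure D1:**
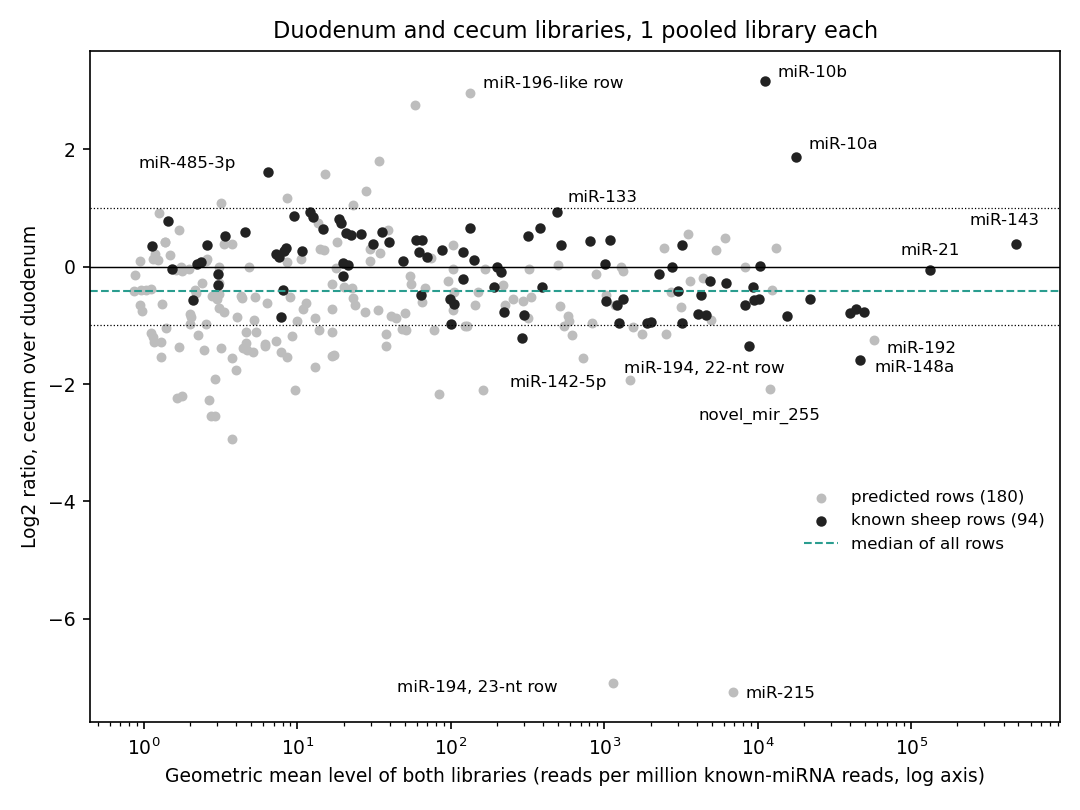
Log2 ratio of the CE level over the DU level for the 274 rows (vertical axis) against the geometric mean of both levels in RPM (horizontal log axis), with known rows in black, predicted rows in grey, 2-fold limits dotted, and the median of all rows dashed at -0.42. The rows of miR-215 and of 23-nt miR-194 lie below -7, and miR-10b and the miR-196-like row lie near 3.

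Families were grouped by name and summed over known rows alone, except miR-192/miR-215, whose rows are predicted. The group of miR-154 and related imprinted miRNAs held 42 rows with 40 seeds. Summed by family, 4 of 32 families (12.5%) were at least 2-fold higher in the DU library, namely miR-192/miR-215, miR-148/miR-152, miR-194, and miR-150, and 1 (3.12%), miR-10, was at least 2-fold higher in the CE library. These shares are those of the whole list of families, so there was no wider background to read them against. The families miR-192/miR-215, miR-148/miR-152, and miR-10 stayed past 2-fold under all 5 scalings. MiR-194, as its known row alone, came to 0.92 on the log2 scale on the DU side with DESeq2 size factors, and miR-150 to 0.79, both within 2-fold. MiR-133 was within 2-fold as reported and past it under the other 4 scalings, and miR-23, at 0.60, came to 1.02 with DESeq2 size factors. The median over the 32 families was -0.53, and 18 families kept a higher DU level and 8 a higher CE level under all scalings. The direction of the families miR-21, miR-22, miR-27, miR-30, miR-221/miR-222, and miR-374 depended on the scaling. The miR-27 value was that of the miR-27a row alone. With the predicted miR-27b row of the same seed added, the family came to 0.27 and lay above 0 under every scaling.

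**Figure D2:**
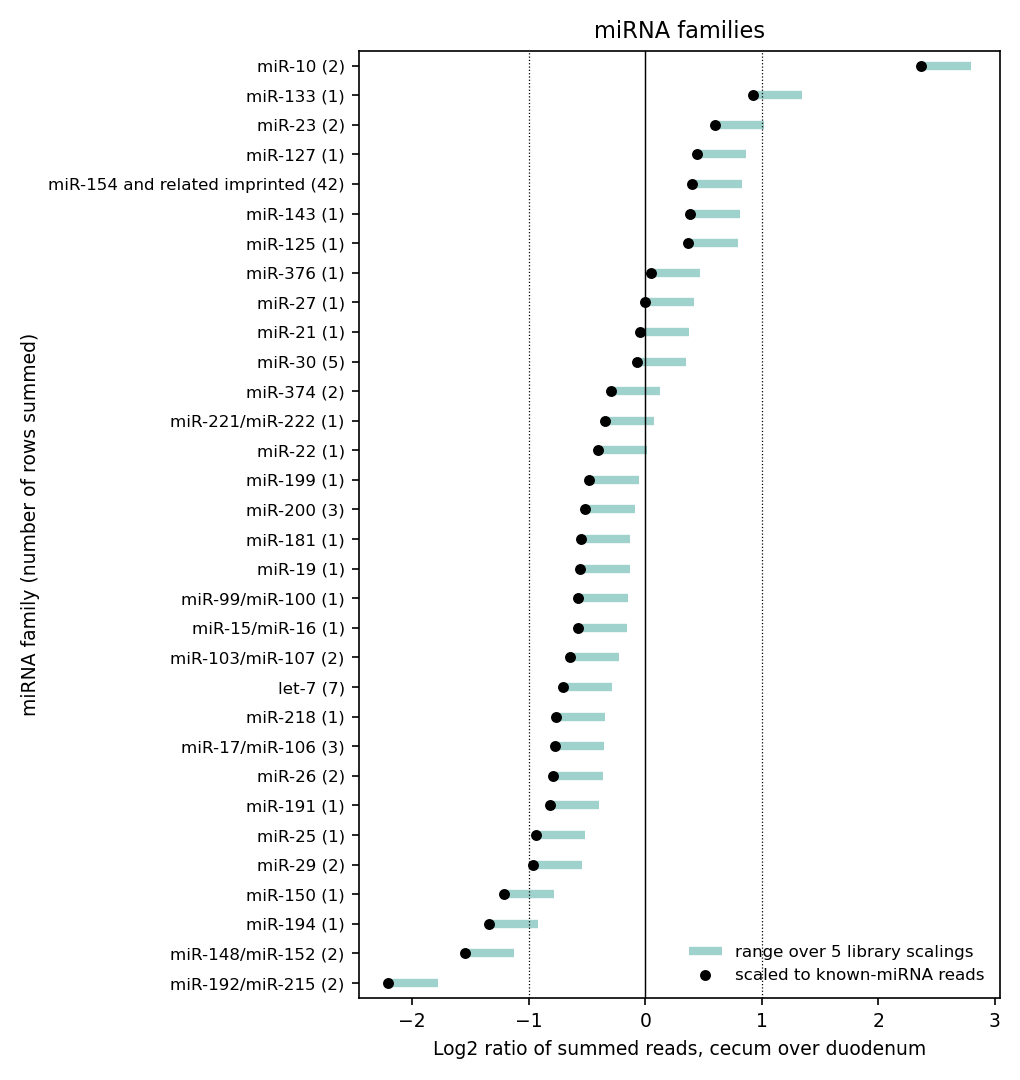
Log2 ratio of summed reads, CE over DU, for the 32 miRNA families, with black points for the scaling to known reads and green bars for the range over 5 scalings, each of which spans 0.42. The miR-10 family lies at 2.37, miR-192/miR-215 at -2.20, and the number of rows summed stands in parentheses.

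The miR-10 family had the largest ratio toward the cecum. MiR-10a and miR-10b lie within HOX clusters, and in the RefSeq annotation of the sheep assembly ARS-UI_Ramb_v3.0 MIR10A lay inside the span of HOXB3 with HOXB4 nearby, and MIR10B inside that of HOXD4 with HOXD3 nearby. MiR-10a had 102586 reads in the duodenum against 454716 in the cecum, or 9340 and 34179 RPM, a log2 ratio of 1.87 (interval 1.86 to 1.88). MiR-10b had 40967 and 444344 reads, or 3730 and 33399 RPM, a log2 ratio of 3.16 (3.15 to 3.18), so that its level was 8.95-fold higher in the cecum. The level of miR-10a exceeded that of miR-10b in the DU library, whereas both were nearly the same in the CE library. In the CO library, miR-10a stood at 23312 RPM and miR-10b at 28211 RPM, both nearer to the cecum than to the duodenum. Together the 2 rows took 1.31% of the known reads in the duodenum and 6.76% in the cecum, and the summed log2 ratio was 2.37 (2.36 to 2.38).

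The other HOX-cluster rows, and a row that resembles one of them, had fewer reads and were also higher in the cecum. The row of miR-615-3p, whose gene lies in the HOXC cluster in mammals, had 195 and 581 reads, a log2 ratio of 1.30. The row novel_mir_153, which has the seed of the HOX-cluster miRNA miR-196a but was not placed in the genome here, had 525 reads (47.8 RPM) in the duodenum against 4983 (375 RPM) in the cecum, a log2 ratio of 2.97. The row of miR-196a itself was listed at 0 in the DU library and had 1171 reads in the CE library. The smallest count above 0 in a predicted row was 5 reads, so a listed 0 gives no fold. The 3 HOX-cluster rows with at least 10 reads in both libraries (miR-10a, miR-10b, and miR-615-3p) lay at 1.30 to 3.16, and these and novel_mir_153 were higher in the cecum under all 5 scalings.

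The miR-192/miR-215 family, enriched in the intestinal epithelium, and its genomic neighbour miR-194, with both of its rows added, had the largest ratios toward the duodenum among the families. MiR-192 had 967314 reads in the duodenum against 490567 in the cecum, or 88070 and 36873 RPM, a log2 ratio of -1.26 (-1.26 to -1.25). MiR-215 had 927737 and 7390 reads, or 84467 and 555 RPM, a log2 ratio of -7.25 (-7.28 to -7.22). The 2 miRNAs were thus at nearly the same level in the duodenum, where they ranked 3 and 4 among all rows, and far apart in the cecum, where miR-192 still ranked 4. Their sum was 172537 RPM in the duodenum against 37429 RPM in the cecum, a log2 ratio of -2.20. Both are predicted rows, and they share a run of 16 bases or more with each other, so reads that cover only the shared part cannot be told apart. The only other row with such a run was listed at 0 in both libraries.

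MiR-194 was present as rows of different length that end 1 base apart. The known 22-nt row had 153314 reads in the duodenum against 73223 in the cecum, or 13959 and 5504 RPM, a log2 ratio of -1.34 (-1.36 to -1.33). The predicted 23-nt row had 147296 and 1297 reads, or 13411 and 97.5 RPM, a log2 ratio of -7.10 (-7.18 to -7.03). The 23-nt row thus held 49% of the miR-194 reads in the duodenum and 1.74% in the cecum. In mammals miR-194 is encoded by separate copies, in a cluster with miR-192 and in a cluster with miR-215. The 22-nt row had a ratio near that of miR-192, and the 23-nt row a ratio near that of miR-215. From which gene copy the reads of either row came was not tested. The sum of both lengths was 27369 RPM in the duodenum against 5601 RPM in the cecum, a log2 ratio of -2.29 (-2.30 to -2.28). Reads were matched to known miRNAs first, and predicted rows were built from reads left without such a match. How a read that fits both lengths was counted is not given in the sources used here, and its part in the ratio of -7.10 was not tested.

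The miR-148/miR-152 family shares the seed CAGTGCA, and its members had unequal ratios. MiR-148a had 886563 reads in the duodenum against 357853 in the cecum, or 80718 and 26898 RPM, a log2 ratio of -1.59 (-1.59 to -1.58). MiR-152 had 10890 and 13616 reads, or 991 and 1023 RPM, a log2 ratio of 0.05 (0.01 to 0.08). The predicted row of miR-148b, with the same seed, lay between them at -0.95 and 1164 to 601 RPM. MiR-148a took 8.07% of the known reads in the duodenum and 2.69% in the cecum, and its colon level was 45352 RPM, between both. MiR-148a and miR-152 differed in sequence by C9T, T10G, and T20G.

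MiR-150, a miRNA of mature lymphocytes, had 4837 reads in the duodenum against 2532 in the cecum, or 440 and 190 RPM, a log2 ratio of -1.21 (-1.28 to -1.14). Its level in the colon was 233 RPM. Its ratio was past 2-fold only with the scaling to known reads.

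**Figure D3:**
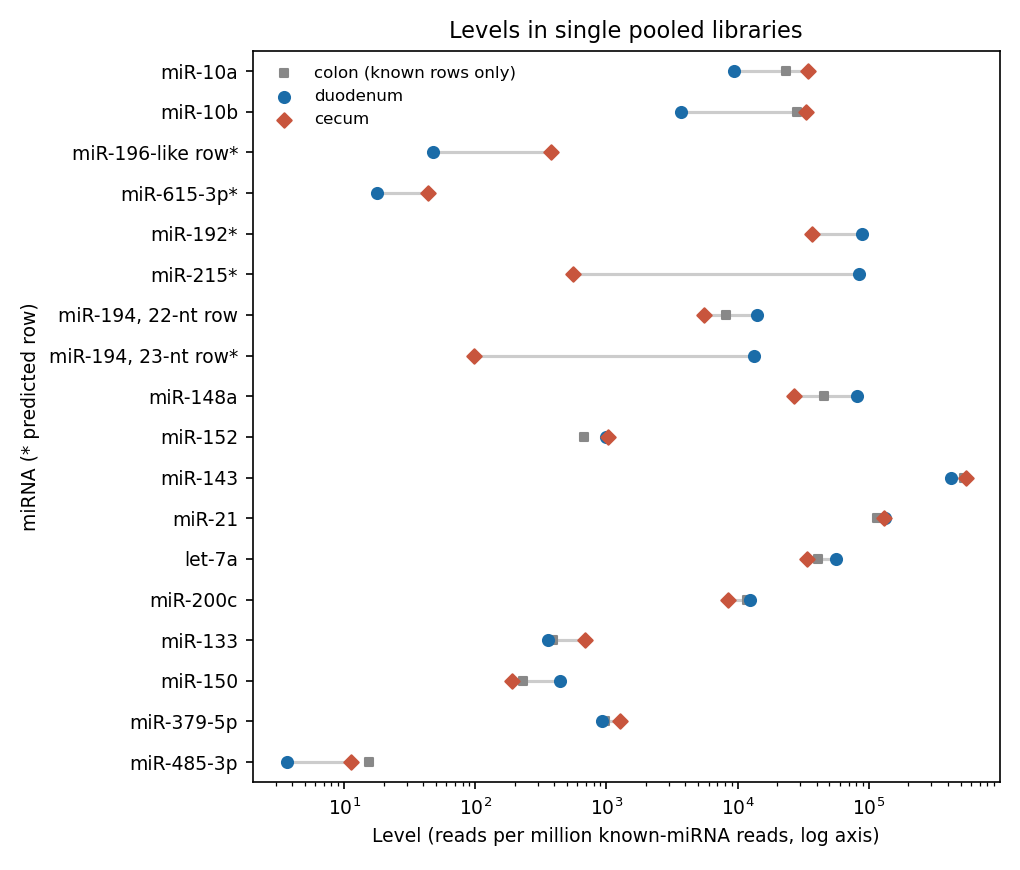
Levels of named miRNAs in RPM (horizontal log axis) in the DU library (circles), the CE library (diamonds), and, for known rows, the CO library (squares), with predicted rows marked by an asterisk. MiR-215 and the 23-nt row of miR-194 spread widest, from 84467 to 555 RPM and from 13411 to 97.5 RPM, while miR-21 stood at 133877 and 129620 RPM.

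Among the most abundant families of both libraries, miR-143, miR-21, and let-7 had ratios within 2-fold. MiR-143, a miRNA of smooth muscle and other mesenchymal cells, led both libraries with 4606500 and 7297109 reads, or 419404 and 548486 RPM, a log2 ratio of 0.39. MiR-21, which is abundant in many cell types, was the next with 133877 RPM in the duodenum against 129620 RPM in the cecum, a log2 ratio of -0.05, or 0.38 with DESeq2 size factors. MiR-143 and miR-21 together held 55.3% of the known reads in the duodenum and 67.8% in the cecum. Let-7, a family associated with differentiated cells, stood above miR-21 in the duodenum and below it in the cecum, with 174491 and 106774 RPM.

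All 7 known let-7 members had a higher DU level, as did 67.9% of all 274 rows. The sum gave a log2 ratio of -0.71 (-0.71 to -0.71), against a median of -0.42 over all rows. With DESeq2 size factors the sum came to -0.29 and the median of all rows to 0.0045. The members ranged from -0.96 for let-7d to -0.35 for let-7b, with let-7a at -0.73 (55932 and 33778 RPM), let-7f at -0.78 (52559 and 30535 RPM), let-7i at -0.84, let-7c at -0.80, and let-7g at -0.55. Let-7b was the only member whose direction depended on the scaling. With the predicted rows added, 11 rows carried the seed GAGGTAG, all below 0 and between -1.003 and -0.35. Let-7a differed from let-7f by G12A and from let-7c by A19G.

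Several further families were less than 2-fold higher in the duodenum, and their members lay close together. In the miR-26 family, miR-26a had 64086 and 37401 RPM (-0.78) and miR-26b 4465 and 2306 RPM (-0.95). In the RefSeq annotation these genes lay inside CTDSP2 and CTDSP1, which encode related phosphatases. In the miR-29 family, known for its targets among collagen genes, miR-29a lay at -0.96 (1745 and 894 RPM) and miR-29b at -0.98 (1548 and 948 reads). MiR-103 lay at -0.65 and miR-107 at -0.48, and these sequences differ only by G22C. MiR-191 lay at -0.82 with 6152 and 3484 RPM.

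The miR-17 to miR-92a cluster and its paralogs, which are tied to proliferating cells, were lower in the cecum as a whole. All 6 rows of the miR-17 to miR-92a cluster lay between -0.93 and -0.56, with miR-17-5p at -0.82 (400 and 226 RPM) and miR-19b at -0.56 (120 and 81.8 RPM). The 3 rows of the miR-106a to miR-363 cluster lay between -0.88 and -0.62, and the 3 rows of the miR-106b/miR-93/miR-25 cluster between -0.94 and -0.52. In the RefSeq annotation MIR25 lay inside the span of MCM7, with MIR106B nearby. MiR-25 had 2780 and 1449 RPM (-0.94), miR-106b 131 and 84.6 RPM (-0.63), and miR-106a 10.5 and 5.79 RPM (-0.86). All 12 rows of these clusters kept a higher DU level under all 5 scalings, as did 137 of all 274 rows. The 6 rows with the seed AAAGTGC, which come from all 3 clusters, lay between -0.86 and -0.52, and their sum at -0.65.

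The miR-200 family maintains epithelial identity and is nearly confined to epithelial cells. The known rows had 29427 RPM in the duodenum against 20591 RPM in the cecum, a log2 ratio of -0.52, and 36433 RPM in the CO library. MiR-200a lay at -0.65 (10294 and 6547 RPM), miR-200c at -0.55 (12353 and 8426 RPM), and miR-200b at -0.27 (6780 and 5618 RPM). The direction of miR-200b depended on the scaling, also for its predicted 23-nt row at -0.40. In the colon, miR-200a (12849 RPM) and miR-200b (11758 RPM) exceeded their duodenum levels, whereas miR-200c (11826 RPM) was slightly below its own. The authors reported that most miRNAs in their quantitative PCR followed the trends of their sequencing. MiR-200b was an exception, with a high level in the colon by sequencing and a relatively high level in the duodenum by PCR.

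Other families were near 0 or higher in the cecum. The 5 known miR-30 rows lay between -0.24 (miR-30a-5p) and 0.02 (miR-30d), and 4 of them changed direction with the scaling. MiR-23a lay at 0.65 (306 and 481 RPM) and miR-23b at 0.53 (266 and 383 RPM). The 18-nt row of miR-23b is contained in the 22-nt sequence of miR-23a, so reads that cover only these bases cannot be told apart. MiR-133, a muscle miRNA, had 3946 reads in the duodenum against 9086 in the cecum, or 359 and 683 RPM, a log2 ratio of 0.93 (0.87 to 0.98). MiR-125b lay at 0.37 (2823 and 3646 RPM), whereas miR-99a lay at -0.57 (11454 and 7692 RPM). The predicted rows miR-99b (0.32) and miR-100 (0.50) share the seed of miR-99a, and the 3 rows added up to -0.09, so the value of the family depended on which rows were counted.

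Rows of the same genomic cluster often lay close together, but not in all clusters. The widest span, 5.99, was that of the miR-192, miR-215, and known miR-194 rows described above, which stand for separate clusters. Counts were per mature sequence, so reads from any gene copy outside the named cluster could not be told apart. MiR-30b and miR-30d differed by 0.02 on the log2 scale, miR-29a and miR-29b by 0.02, the 5 rows of the miR-362/miR-500/miR-532/miR-660 group spanned 0.17, and let-7a, let-7f, and let-7d spanned 0.24. The let-7c/miR-99a/miR-125b cluster spanned 1.17, from let-7c at -0.80 to miR-125b at 0.37. Its paralog, let-7e/miR-99b/miR-125a, spanned 1.05, again with the let-7 row lowest (-0.49) and the miR-125 row highest (0.56). In both clusters every row kept its direction under the 5 scalings. In the miR-23a/miR-27a/miR-24 cluster miR-23a lay at 0.65 and miR-27a at 0.00, and in the miR-143/miR-145 cluster miR-143 lay at 0.39 and the miR-145-3p row at -0.24. MiR-15b lay at -1.35 (663 and 314 reads) and miR-16b at -0.58.

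**Figure D4:**
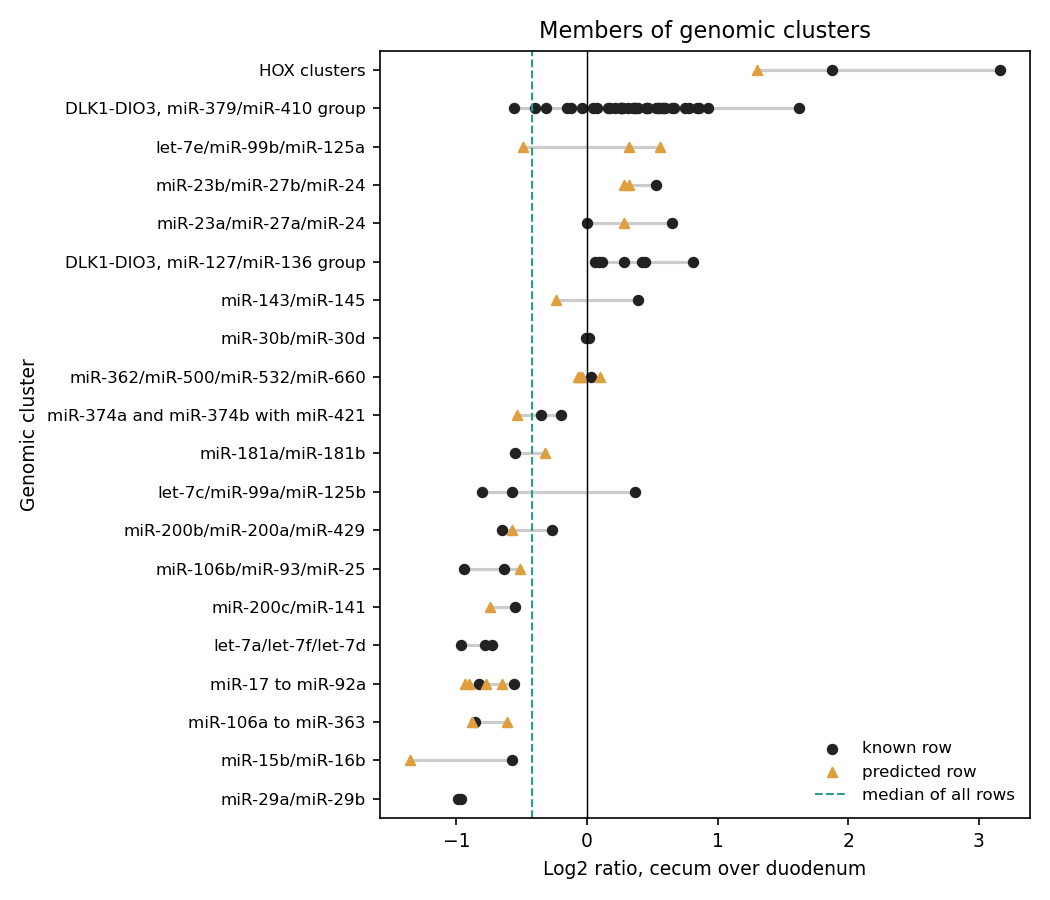
Log2 ratio of each row, CE over DU, for rows grouped by genomic cluster in mammals, with the median of all rows dashed. Circles are known rows and triangles are predicted rows. The miR-192, miR-194, and miR-215 rows are left out. The line of HOX clusters joins rows of separate HOX clusters. The HOX-cluster rows lie at 1.30 to 3.16, the miR-17 to miR-92a rows at -0.93 to -0.56, and the let-7c/miR-99a/miR-125b rows on both sides of 0.

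The imprinted DLK1-DIO3 region holds the largest group of known rows, and in mammals its miRNAs are expressed from the maternal chromosome. Of its 96 rows in the table, 44 had at least 10 reads in both libraries. A higher CE level was found for 38 of them and a higher DU level for 6, and the median log2 ratio was 0.36. Of the other 50 known rows, 10 were higher in the cecum and 40 in the duodenum, with a median of -0.55. With DESeq2 size factors these medians became 0.79 and -0.13. The ratio of 43 of the 44 rows was above the median of all 274 rows. The interval lay above 0 for 25 rows and below 0 for none of them, and it held 0 for 19 rows, while 19 rows had fewer than 100 reads in at least 1 library.

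Summed over the region, the level was 3109 RPM in the duodenum, 4137 RPM in the cecum, and 3675 RPM in the colon, a log2 ratio of 0.41 (0.39 to 0.43). MiR-379-5p (921 and 1272 RPM, 0.46), miR-127 (692 and 942 RPM, 0.44), and miR-411a-5p (457 and 589 RPM, 0.36) held 66.6% of these reads in the duodenum and 67.7% in the cecum. Without them the sum gave 0.36 (0.33 to 0.40). The 7 rows of the miR-127/miR-136 group lay between 0.06 and 0.81, and the 37 rows of the miR-379/miR-410 group between -0.56 and 1.62. MiR-485-3p, at 1.62 (interval 1.11 to 2.16), was the only row past 2-fold, with 40 and 149 reads, whereas 11 of the 44 rows were past 2-fold toward the cecum with DESeq2 size factors.

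Both arms of a precursor could be compared for 9 known precursors, 8 of them in this region. The 3p arm of miR-485 was 1.03 further toward the cecum than the 5p arm on the log2 scale (interval 0.49 to 1.57), and the share of the 5p arm was 88.8% in the duodenum against 79.5% in the cecum. The difference between the arms was 0.36 for miR-382 (0.01 to 0.70) and 0.16 for miR-30a (0.08 to 0.24). The interval of the difference held 0 for the other 6 precursors.

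The predicted rows with the largest ratios that matched no HOX or epithelial miRNA had low to moderate counts. On the cecum side, novel_mir_24 had 247 and 2036 reads (2.77), novel_mir_173 199 and 845 reads (1.81), and miR-184 96 and 349 reads (1.59). On the duodenum side, novel_mir_46 had 114 and 18 reads (-2.94), novel_mir_167 77 and 16 (-2.54), novel_mir_243 72 and 15 (-2.54), bta-miR-2285n 64 and 16 (-2.28), novel_mir_462 39 and 10 (-2.24), and novel_mir_514 42 and 11 (-2.21). The row novel_mir_255, among the 10 rows with the most reads in the duodenum, had 269247 reads (24514 RPM, rank 10) in the duodenum against 77223 (5804 RPM) in the cecum, a log2 ratio of -2.08.

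Several of these low-count rows share a string of bases. The string GAACTTTT, or AAAAGTTC on the other strand, was found in 97 of the 822 rows (11.8%), in none of the known rows, and in 24 of the 274 rows compared (8.76%), and it also occurs in the bovine miR-2284 and miR-2285 group, which arose from a repeat. The string was chosen after the values were seen. The following rows, from both ends of the range, show it outside the seed.
novel_mir_167: aAAAACCTgaaggaacttttt
novel_mir_243: cAAATCTGaatgaactttttgg
bta-miR-2285n: aAAAACCCgaatgaacttttg
novel_mir_173: aAAAAACCgagtgaactttttg
The median log2 ratio of the 24 rows was -1.14, and 21 of them had a higher DU level. At least 2-fold higher were 15 in the duodenum and 1, novel_mir_173, in the cecum, where the shares over all 274 rows were 21.9% and 4.01%. The other 156 predicted rows had a median of -0.52, and 42 of them were at least 2-fold higher in the duodenum and 7 in the cecum. The median count of the 24 rows was 68 reads (DU) and 29 reads (CE).

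The marker lists of cell types did not all move in the same direction, and their part in these differences was not tested. In pooled tissue, fewer cells of a type and less RNA per cell cannot be told apart. Of the 7 epithelial markers listed, 6 had a row (miR-375 had none). All 10 of their rows within the comparison had a higher DU level, 8 of them under all 5 scalings. Over all 274 rows, 186 (67.9%) had a higher DU level, and 137 rows kept it under all 5 scalings. MiR-194 and miR-200b each count among the 10 with rows of different length. The summed level of the epithelial rows was 243993 RPM in the duodenum against 74663 RPM in the cecum, a log2 ratio of -1.71. Without the miR-215 row and the 23-nt miR-194 row, the sum gave -0.98. The miR-200, miR-141, and miR-429 rows alone gave -0.48, near the median of -0.42 over all 274 rows. Of the 7 mesenchymal marker rows within the comparison, 4 were higher in the cecum and 3 in the duodenum. They summed to 438503 and 597580 RPM (0.45), or to 15369 and 15695 RPM without miR-143 and miR-10b. The row of miR-214 was listed at 0 in the DU library and had 456 reads in the cecum. A 19-nt predicted row sharing a run of 16 bases with it had 373 DU reads and was listed at 0 in the cecum. The listed 0 of miR-214 therefore gives no fold and no absence. MiR-1 had no row.

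The 4 rows of blood cell markers within the comparison all had a higher DU level, miR-486 not under every scaling. Over all 274 rows, 67.9% had a higher DU level. MiR-142-5p had 2873 RPM in the duodenum against 750 RPM in the cecum (-1.94), miR-150 lay at -1.21, miR-155 had 924 and 412 RPM (-1.16), and miR-486 60.9 and 49.5 RPM (-0.30). The red cell marker miR-451 was at 0 in both libraries, miR-144 had 27 reads in the DU library and was listed at 0 in the CE library, and miR-223 had no row. The striated muscle rows miR-206 and miR-499 summed to 121 and 68.9 RPM, and miR-208 had no row. The neuronal rows miR-124 and miR-218 summed to 293 and 173 RPM, and miR-9 had no row. The liver marker miR-122, read from rows of different length in the libraries, had 198 and 21.1 RPM, the pancreas markers miR-216a and miR-217 summed to 17.3 and 6.09 RPM, and the endothelial marker miR-126 had no row.

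**Figure D5:**
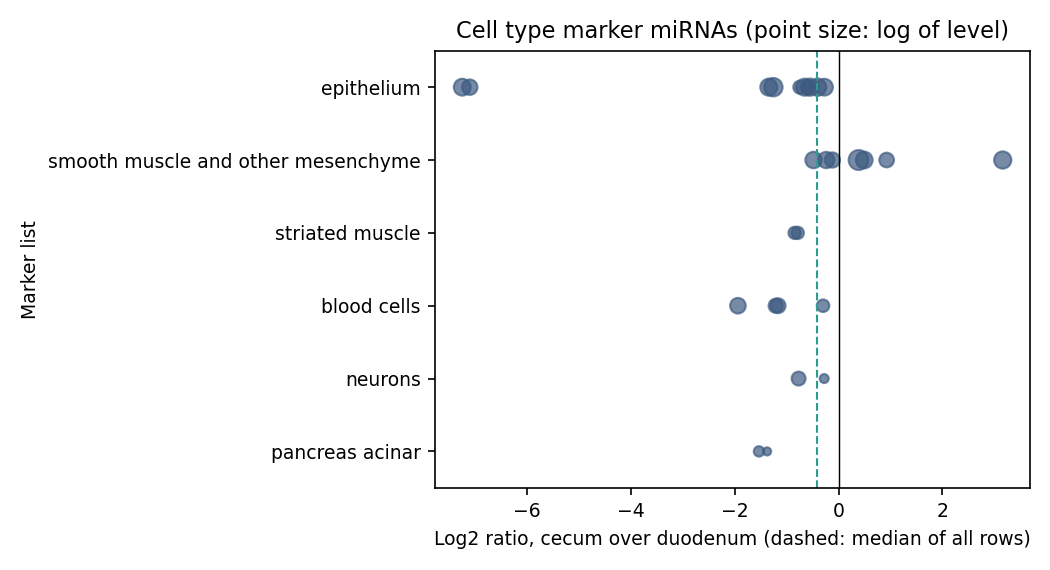
Log2 ratio of each marker miRNA, CE over DU, by the cell type it is known for, with larger points for more abundant rows and the median of all rows dashed. All 10 epithelial and all 4 blood cell rows lie below 0, as do 67.9% of all 274 rows. The 7 mesenchymal rows lie on both sides of 0.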

How the data were processed

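Small RNA of 3 libraries (DU, CE, and CO) had been sequenced by the authors. They removed adapters and low-quality and short reads, aligned them by SOAP against assembly Oar_v4.0, matched known miRNAs to miRBase with BLAST, and predicted others with miReap. The deposited counts are raw reads per mature sequence, made by the authors without normalization. Totals over all rows were 14462675 (DU), 15072945 (CE), and 13769740 (CO) reads.

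Levels are reads per 1000000 reads of the known rows. Log2 ratios have exact (Clopper-Pearson) 95% intervals. The script was tested on simulated data of 274 rows, where 95.3% of intervals held the true ratio. Other scalings were all rows, known rows without miR-143, edgeR 4.0.16 TMM, and DESeq2 1.42.0 size factors, used for scaling only. Python 3.11.15 and R 4.3.3 were used.

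Predicted rows were named by identical or nested mature sequence, and 84 of 85 known precursors matched a RefSeq gene name. Colon counts of predicted rows are not given, since the miR-192 row was listed at 0 there. The miRNAs named were the 10 rows with the most reads and the 8 with the largest ratio on either side, the members of families or clusters past 2-fold and of the larger families, and the marker lists. Members, lists, and rules were chosen with earlier results of these data known.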

Additional observations from a re-analysis of the deposited data

Results flagged for a closer look

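The following rows were outside the comparison because they were listed at 0 in 1 library, had at least 100 reads in the other, and had no other row sharing a run of 16 bases with reads there. In the DU library, miR-1307 had 6775 reads, miR-744 had 2006 reads, and miR-802-5p had 600 reads, and all 3 were listed at 0 in the CE library. In the CE library, miR-196a had 1171 reads and miR-34c had 144 reads, and both were listed at 0 in the DU library. All 5 are predicted rows, whose smallest count above 0 was 5 reads, so a listed 0 gives no fold and no absence. Another 18 rows were at 0 in 1 library with at least 100 reads in the other, but a row sharing 16 bases had reads there. Adding such rows gave log2 ratios of -6.63 for miR-31 (981 and 12 reads), -3.23 for miR-122 (2170 and 281), -1.32 for miR-361-3p, -1.21 for miR-425-5p, -0.47 for miR-140, 0.25 for miR-542-3p, and 0.37 for miR-1343-3p.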

How the results depend on the processing

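As reported, 60 of 274 rows (21.9%) were past 2-fold toward the DU library and 11 (4.01%) toward the CE library, and the median over families was -0.53. Scaled to all rows, the counts were 39 (14.2%) and 17 (6.20%), without miR-143 30 (10.9%) and 23 (8.39%), with TMM 29 (10.6%) and 24 (8.76%), and with DESeq2 size factors 25 (9.12%) and 27 (9.85%), while the median over families was -0.32, -0.17, -0.16, and -0.11 in the same order. With no filter and 1 read added, 40.3% and 17.9% of 593 rows were past 2-fold. At a minimum of 100 reads the counts were 27 (15.9%) and 7 (4.12%) of 170 rows, and with known rows alone 3 (3.19%) on either side, which became 1 and 15 with DESeq2 size factors. Under all 5 scalings, 25 rows were past 2-fold toward the DU library and 11 toward the CE library. With length variants added up, the counts were 66 and 11 of 291 entries, with 1 read added 59 and 11, with the Audic-Claverie rule 50 and 10, and, chosen after seeing the data, without rows holding GAACTTTT or AAAAGTTC 45 and 10. The number of families past 2-fold was 4 or 5 in all settings run. The scalings shift all ratios alike by at most 0.42, so they cannot reverse a row past 2-fold, and 6 families and 49 rows within 2-fold changed direction. No paired analysis was possible because each segment had 1 library, and for the same reason no library could be left out. A row of 10 reads equals 0.91 RPM in the DU library and 0.752 RPM in the CE library, and the interval of the log2 ratio was at most 2.77 wide.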
